A study of Mus musculus with 18 samples.

Results

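The 38 genes described here encode proteins of synaptic vesicles and of the machinery that releases and retrieves them. They were taken from a list of names grouped by function. The array had 93 probe sets for them, a probe set being the group of short probes that reads 1 transcript. Of these, 78 probe sets gave enough signal to be tested, and they covered 37 of the 38 genes, among 14432 genes tested in all. The gene left out was Sv2c, a vesicle glycoprotein, whose single probe set lay between intensities of 15 and 20.6 on all 18 arrays, which is under the detection bound on each.

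The study compared mouse cells of strain C57/B6 that carried both copies of Hmgn1 (+/+) or had lost both (-/-), at 3 stages of neural differentiation, with 3 arrays for each of the 6 groups. The stages were embryonic stem cells (ES cells), the neural progenitors made from them, and neurons. Hmgn1 encodes a protein that binds nucleosomes. ES cells were kept in LIF and serum replacement, on mitomycin-treated fibroblasts or without feeders, and which arrays came from which is not stated. Both later stages were obtained with a purchased kit that directs mouse ES cells to dopaminergic neurons, so they are cultures and may hold several cell types. The 3 arrays of a group are labelled biological replicates. Separate cultures or differentiation runs are not stated, so the p-values measure only the spread between these arrays, which may be technical. The number of ES lines per genotype is not stated, and a line's own differences and the loss of Hmgn1 cannot be told apart. Fewer neurons in a culture and less RNA per neuron cannot be told apart either.

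Release begins when Vamp2 on the vesicle pairs with Snap25 and Stx1a on the cell membrane to form the SNARE complex. Unc13, Rim and CAPS proteins prepare vesicles at the active zone, synaptotagmins such as Syt1 sense calcium, and complexins hold and then promote fusion. Nsf and its SNAP partners take the spent complex apart, while dynamin, amphiphysin, synaptojanin and Snap91 retrieve membrane. Neurons use this set for transmitter release, and several members also serve secretion in other cells.

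Promoter sequences are shown for 4 genes: Syn1, which codes for a protein that tethers vesicles, and Unc13a, because they held known repressor or activator motifs, and Amph and Cadps2, because they were called between genotypes in more than 1 cell type. They come from RefSeq on the mouse build GRCm38.p6, where 30 of the 38 genes had a window of 300 bases, from 250 before to 50 after the start. All read 5' to 3' on the gene's strand. Capitals in Syn1 mark first TTCAGCACC, the left arm of the RE1 element bound by the repressor REST, and then TGACGTCA, the cAMP response element. Capitals in Unc13a mark the right arm and then the left arm of RE1, both as their reverse complements. Capitals mark the E-box CAGCTG in Amph and the GC box GGGCGG in Cadps2.
Syn1 (chrX:20921049-20921168, minus strand): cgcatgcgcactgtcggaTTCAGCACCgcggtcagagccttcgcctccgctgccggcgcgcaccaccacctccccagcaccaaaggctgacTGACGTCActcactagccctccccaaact
Unc13a (chr8:71671727-71671753, minus strand): GGCGCTGTCCgcgcccccGGTGCTGAA
Amph (chr13:18948201-18948350, plus strand): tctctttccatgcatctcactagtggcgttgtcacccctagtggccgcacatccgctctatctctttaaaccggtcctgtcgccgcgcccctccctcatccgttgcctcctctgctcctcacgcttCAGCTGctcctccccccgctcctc
Cadps2 (chr6:23839422-23839571, minus strand): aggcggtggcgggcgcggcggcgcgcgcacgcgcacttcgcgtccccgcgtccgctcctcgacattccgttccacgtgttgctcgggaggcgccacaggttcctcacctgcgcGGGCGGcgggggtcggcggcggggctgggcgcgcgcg

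In the search of both strands of the 300-base windows, TTCAGCACC was found in 2 of the 30 promoters, those of Syn1 and Unc13a, and in 0.536% of the promoters of all genes tested. In Syn1 it started at -232 and the cAMP response element at -159, counted from the gene's start. In Unc13a the right arm started at 5 and the left arm at 23 past the start. The right arm was in 1 of the 30 and in 0.285% of promoters of tested genes, and TGACGTCA in 1 of the 30 and in 3.32%. The E-box CAGCTG was in 10 of the 30, or 33.3%, against 18.6% of promoters of tested genes, and began at -24 in Amph. The GC box GGGCGG was in 23 of the 30, or 76.7%, against 65.7%, and began at -37, -161 and -205 in Cadps2. TATAAA was in 1, Sv2b, against 9.43%. No match overlapped another motif searched, and the median number of CpG pairs was 21.5 in these windows against 21 in those of tested genes. A match describes letters in this window and not binding.

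Values are intensities on a linear scale, given in the order of replicates 1, 2 and 3. Differences are on the scale of log2(intensity + 1), with the standard error (SE) of the fit, and a gene is called at a Benjamini-Hochberg adjusted p under 0.05 over all genes tested. An intensity under the 40th percentile of its array, 36.6 to 38.7, is read as not above background, and a fold against a group whose 3 arrays all lie under that bound is given as a lower limit. Hmgn1 itself was bright on 3 of its 4 probe sets in both genotypes, and on each of these the -/- arrays lay below the +/+ arrays in every cell type. On the first of them the range was 5748 to 8496 on -/- arrays and 7750 to 12405 on +/+ arrays. No source used here gives the place of these probes relative to the inactivated part, so they do not check the labels. Arrays of 1 group correlated at r 0.995 to 0.998. ES +/+ replicate 3 stood apart, with 32 genes over 2-fold from its group mates and none of the vesicle genes among them.

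The stage labels were set against markers. In the +/+ cells, 8 of 8 pluripotency markers fell and 8 of 9 neural progenitor markers rose from ES cells to progenitors, and 16 of 17 pan-neuronal markers rose from progenitors to neurons. However, 12 of the 17 pan-neuronal markers had already risen in the first step and 2 had fallen, with a median log2 change of 1.61. The neural progenitor markers split in the second step, with 3 higher, 4 lower and a median of 0.005. Markers of other cell types also rose in the neural cultures: 7 of 8 astroglial markers rose in the second step, with a median log2 change of 2.49, and 10 of 10 endoderm markers and 12 of 12 mesenchyme and fibroblast markers had risen in the first. In the second step 8 endoderm markers fell and 2 rose, while 7 mesenchyme and fibroblast markers rose and 2 fell. Which cells gave these signals was not tested. Of 5 tested endocrine markers 2 fell and none rose in the first step, and in the second 2 rose, Chga by 2.84 and Sst by 0.82, and 2 fell. Neural crest and adrenergic markers split, with 2 of 7 higher and 5 lower in the first step and 1 higher and 3 lower in the second.

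**Figure D1:**
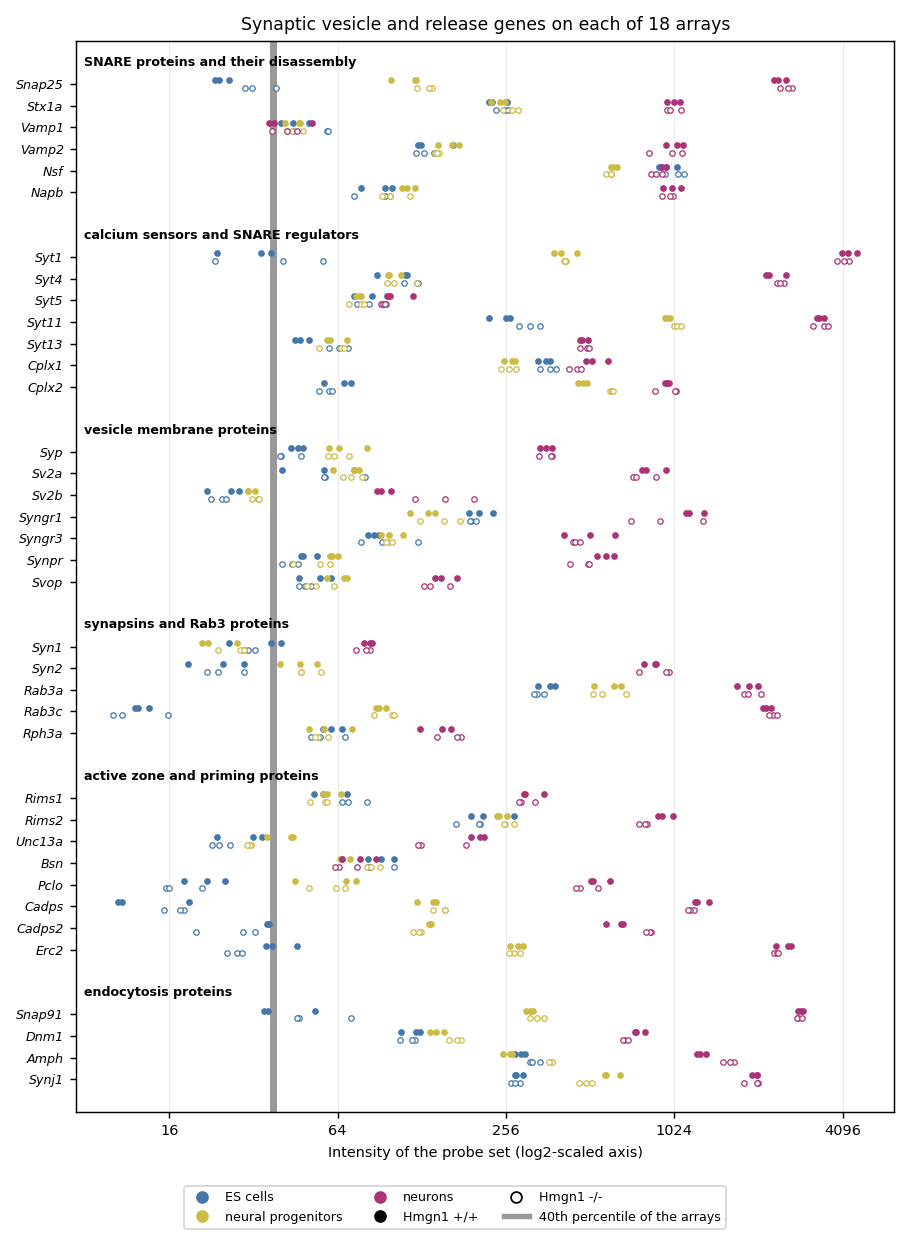
Intensity of each gene on each of the 18 arrays, on a log2-scaled axis, by role, cell type (colour) and genotype (filled +/+, open -/-), with the grey band at the 40th percentile of the arrays (36.6 to 38.7). Nearly all genes sit furthest right in neurons, Vamp1, Bsn and Nsf do not, and filled and open points of 1 cell type lie close together.

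The vesicle genes rose mainly in the second step of differentiation. From +/+ progenitors to neurons, 35 of the 37 were higher and 0 lower, with a median log2 change of 2.35. From +/+ ES cells to progenitors, 20 were higher and 6 lower, with a median of 0.31. Among all genes tested, the second step raised 34.6% and lowered 44.4% (79% called, median -0.11), and the first raised 41.3% and lowered 37.2% (78.5% called, median 0.02). In -/- cells 35 vesicle genes were higher and 1 lower in the second step, against 35.2% and 45.6% of all genes (80.9% called). In the first step of -/- cells 20 were higher and 4 lower, against 39.8% and 38% of all genes (77.7% called). All 35 genes that rose in the second step were the same in both genotypes, and 17 rose in the first step in both. Napb, Svop and Syt13 were called higher in the first step in +/+ alone, and Amph, Rims2 and Sv2b in -/- alone, with Sv2b under the bound at both stages. Of these 6, the difference between the genotypes' steps was called for Amph and Syt13.

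**Figure D2:**
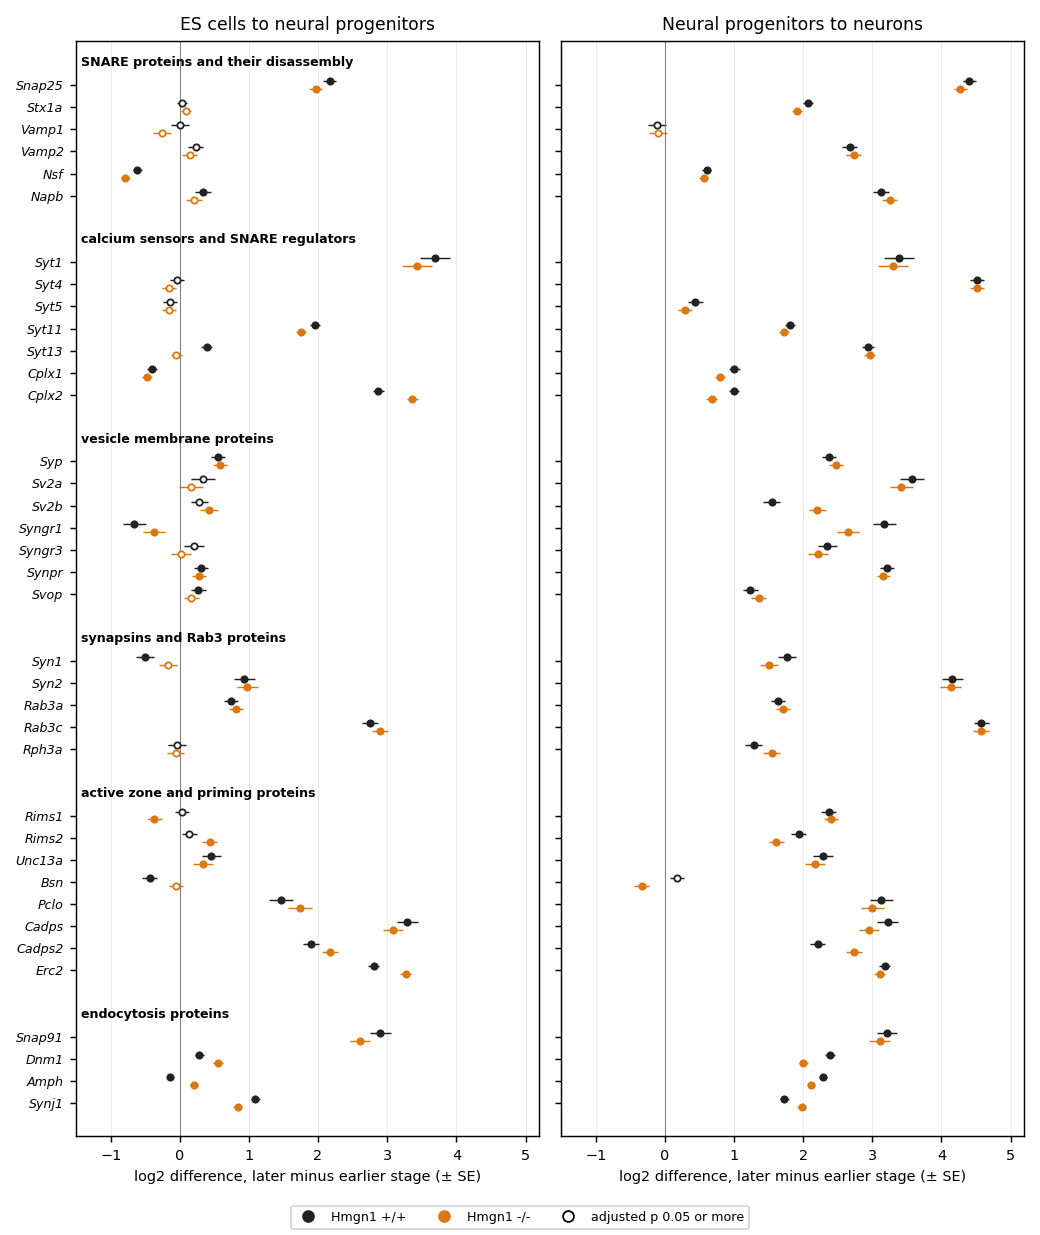
Log2 change of each gene (± SE) from ES cells to progenitors and from progenitors to neurons, in +/+ and -/- cells, with open points where the adjusted p was 0.05 or more. Second-step changes in +/+ cells run from -0.11 for Vamp1 to 4.58 for Rab3c, while their first-step changes spread on both sides of 0, from -0.66 to 3.69.

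Among SNARE proteins, Snap25 had the largest rise. In +/+ cells its intensities were 26.2, 23.4 and 24.1 in ES cells, then 122.4, 99.6 and 120.6 in progenitors, with 2323, 2571 and 2398 in neurons. In -/- cells they were 38.6, 31.6 and 29.8, then 138.8, 135.9 and 122.9, then 2691, 2617 and 2444. The stages did not overlap in either genotype, and +/+ ES cells were under the bound on all arrays. In +/+ cells the first step was 2.17 (SE 0.09, adjusted p 1.32e-12), at least 2.92-fold, and the second was 4.40 (SE 0.09, adjusted p 4.82e-16), or 21.2-fold.

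The other core SNAREs moved in the second step alone. Stx1a, the membrane syntaxin, was at 222.6, 258.5 and 228.7 in +/+ ES cells, then 243.9, 226.8 and 254.6 in +/+ progenitors, with 1023, 1072 and 966.7 in +/+ neurons. In -/- cells it was at 236.7, 253.5 and 261.3, then 283.1, 269.0 and 249.6, then 1084, 961.6 and 985.7. ES cells and progenitors overlapped, and neurons stood above both. The first +/+ step was 0.03 and not called, though quantile normalization made it -0.16 (adjusted p 0.0404). The second step was 2.07 in +/+ and 1.91 in -/- cells (SE 0.07 each), with adjusted p 1.11e-13 and 2.69e-13. Its probe set carries the suffix _x, which Affymetrix gives where probes may match other transcripts.

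Vamp2, the vesicle SNARE, was at 165.4, 127.1 and 123.6 in +/+ ES cells, then 146.1, 174.4 and 163.8 in +/+ progenitors, with 1046, 1099 and 957.9 in +/+ neurons. In -/- cells it was at 121.7, 142.1 and 130.8, then 142.5, 147.4 and 145.2, then 1089, 832.2 and 1002. Neurons stood above both other stages. ES cells and progenitors overlapped in +/+ cells, and in -/- cells they were narrowly apart, with 142.1 the highest ES value and 142.5 the lowest progenitor value. The second step was 2.67 (SE 0.11, adjusted p 9.03e-13) in +/+ cells and 2.73 (SE 0.11, adjusted p 6.19e-13) in -/- cells, while the first was not called in either genotype (adjusted p 0.0735 and 0.252).

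Vamp1, a close relative of Vamp2, did not rise. Its intensities stayed between 36.3 and 59.0 on the 18 arrays, near the bound, and the second step was -0.11 in +/+ and -0.10 in -/- cells (adjusted p 0.44 and 0.478). Nsf, the ATPase that takes SNARE complexes apart, was already bright in +/+ ES cells, at 903.4, 1048 and 919.5. It was at 620.1, 638.7 and 605.8 in +/+ progenitors and 954.9, 954.3 and 923.8 in +/+ neurons. Progenitors thus lay below both other stages. The steps were -0.62 (SE 0.06, adjusted p 1.41e-07) and 0.60 (SE 0.06, adjusted p 1.96e-07), and -0.79 and 0.56 in -/- cells. Napb, the neural SNAP that recruits Nsf, rose by 3.12 in the second step.

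Of the calcium sensors, Syt1 rose in both steps by like amounts. Its intensities in +/+ cells were 37.0, 34.0 and 23.7 in ES cells, then 380.1, 401.3 and 458.8 in progenitors, with 4290, 4616 and 4079 in neurons. In -/- cells they were 40.7, 56.7 and 23.3, then 419.9, 413.9 and 416.5, then 4305, 3917 and 4151. The stages did not overlap, and in -/- ES cells replicate 3 lay more than 2-fold below the mean of its mates. The +/+ steps were 3.69 (SE 0.22, adjusted p 6.68e-11), at least 10.5-fold, and 3.39 (SE 0.22, adjusted p 2.2e-10), or 10.5-fold.

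Syt4, a synaptotagmin that lacks calcium binding in its first C2 domain, rose only in the second step. It was at 88.4, 111.2 and 113.0 in +/+ ES cells, then 107.5, 97.0 and 97.7 in +/+ progenitors, with 2174, 2563 and 2235 in +/+ neurons. The first 2 stages overlapped. The second step was 4.51 (SE 0.10, adjusted p 8.12e-16), or 22.8-fold, in +/+ cells, and 4.51 in -/- cells. Syt11, another synaptotagmin, rose by 1.96 and 1.81 in the 2 steps of +/+ cells, Syt13 by 0.39 and 2.93, and Syt5 by 0.44 in the second step alone.

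The complexins differed in their timing. In +/+ cells Cplx2 was at 57.3, 67.3 and 71.3 in ES cells, then 498.8, 483.8 and 465.0 in progenitors, with 946.6, 963.3 and 982.8 in neurons. Its larger step was the first, 2.87 (SE 0.08, adjusted p 2.84e-15) against 1.0 (SE 0.08, adjusted p 2.71e-09) in the second, so progenitors had 50% of the neuronal intensity. Cplx1 fell in the first step, by 0.40 (SE 0.07, adjusted p 0.000109), and rose by 1.01 (SE 0.07, adjusted p 1.75e-09) in the second.

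All 7 tested vesicle membrane proteins rose in the second step in both genotypes, with +/+ changes from 1.23 for Svop to 3.58 for Sv2a, a glycoprotein of all synaptic vesicles. Syp, the abundant vesicle protein synaptophysin, rose by 0.55 (SE 0.10) and 2.37 (SE 0.10) in the 2 steps. Synpr, its relative synaptoporin, rose by 0.31 and 3.22. Syngr1, a synaptogyrin, had the largest first-step fall of the vesicle genes in +/+ cells, where Nsf had it in -/- cells: it was at 188.7, 204.5 and 230.4 in +/+ ES cells, then 116.4, 143.2 and 134.9 in +/+ progenitors, with 1151, 1302 and 1128 in +/+ neurons. The 3 stages did not overlap. The steps were -0.66 (SE 0.16, adjusted p 0.00144) and 3.18 (SE 0.16, adjusted p 1.18e-11). The other Syngr1 probe set tested went the other way in the second step, by -0.79.

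Rab3c, a vesicle GTPase, had the largest second-step rise of the 37. It was at 12.4, 13.5 and 12.1 in +/+ ES cells, under the bound, at 95.1, 88.1 and 89.8 in +/+ progenitors, and at 2186, 2274 and 2129 in +/+ neurons. The stages did not overlap. The steps were 2.75 (SE 0.11, adjusted p 7.06e-13), at least 2.34-fold, and 4.58 (SE 0.11, adjusted p 2.07e-15), or 23.9-fold. Rab3a, the main synaptic Rab3, rose by 0.74 and 1.64, again on a probe set with the suffix _x, and Rph3a, a Rab3 effector, by 1.28 in the second step.

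The synapsins tether vesicles in reserve. Syn2 rose by 0.93 (SE 0.15) and 4.15 (SE 0.15) in the 2 steps of +/+ cells. Its +/+ ES arrays were all under the bound, so the first step was at least 1.21-fold, and the second was 17.8-fold. Syn1 was dim throughout: it was at 37.1, 26.1 and 40 in +/+ ES cells, then 21.0, 22.1 and 28.0 in +/+ progenitors, with 84.9, 79.8 and 83.5 in +/+ neurons. ES cells and progenitors overlapped and lay near or under the bound, so the first-step call of -0.51 (SE 0.13, adjusted p 0.00196) has no fold. The second step was 1.77 (SE 0.13, adjusted p 1.46e-09), at least 2.2-fold.

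At the active zone, Cadps, which primes vesicles for release, rose from 18.8, 10.8 and 10.5 in +/+ ES cells to 140.1, 122.7 and 143.5 in +/+ progenitors and 1233, 1361 and 1216 in +/+ neurons. ES cells were under the bound and the stages did not overlap. The steps were 3.29 (SE 0.15, adjusted p 1.88e-12), at least 3.47-fold, and 3.22 (SE 0.15, adjusted p 2.74e-12), or 9.32-fold. Erc2, a scaffold of the active zone, rose by 2.80 and 3.18, Cadps2, the paralog of Cadps, by 1.90 and 2.21, and Pclo, the scaffold piccolo, by 1.46 and 3.13. The +/+ ES arrays of Cadps2 and Pclo were all under the bound, as were most of those of Erc2. The first step of Pclo was thus at least 1.59-fold. Rims1 and Rims2, which dock vesicles near calcium channels, rose in the second step by 2.37 and 1.93. Bsn, the scaffold bassoon, did not rise on its brightest probe set, with 0.17 (adjusted p 0.142) in +/+ and -0.34 (SE 0.11, adjusted p 0.008) in -/- cells, yet its other tested probe set rose by 1.21 and 1.31. With the mean of its probe sets the -/- step turned to 0.49 (adjusted p 5.05e-06).

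All 4 endocytosis genes rose in the second step. Snap91, a clathrin assembly protein, was at 35.0, 53.3 and 36.0 in +/+ ES cells, then 311.0, 300.9 and 319.5 in +/+ progenitors, with 2900, 2946 and 2827 in +/+ neurons. The 3 stages did not overlap. The steps were 2.90 (SE 0.15, adjusted p 1.22e-11), or 7.47-fold, and 3.22 (SE 0.15, adjusted p 3.46e-12), or 9.29-fold. As 2 of the 3 +/+ ES arrays were under the bound, the first fold rests partly on signal not above background. Dnm1, the neuronal dynamin, rose by 0.28 and 2.39, and Synj1, the phosphatase synaptojanin, by 1.09 and 1.72. Amph, which links dynamin to clathrin coats, fell by 0.14 in the first step and rose by 2.28 in the second.

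Between genotypes the vesicle genes differed little. In ES cells 4 of 37 were higher and 2 lower in -/- (16.2% called), against 10.5% and 4.32% of all genes (14.9% called). In progenitors 4 were higher and 1 lower (13.5%), against 7.81% and 9.19% (17% called). In neurons 3 were higher and 1 lower (10.8%), against 5.95% and 7.27% (13.2% called). These shares of vesicle genes lie near the background in each cell type. Median log2 differences of the 37 were -0.03, -0.0004 and -0.06, against 0.04, 0.0017 and -0.02 over all genes. With only the 6 ES arrays fitted, 0 of the 37 were called in ES cells (limma, 8 at an unadjusted p under 0.05). No difference reached 1 on the log2 scale in any cell type. Groups did not overlap for 7, 10 and 10 of the 37, against 28.3%, 40.8% and 31.5% of all genes. In neurons the differences of the core release genes, with 95% confidence intervals, were 0.09 (-0.11 to 0.29) for Snap25, -0.01 (-0.17 to 0.14) for Stx1a, -0.09 (-0.33 to 0.14) for Vamp2 and -0.07 (-0.53 to 0.39) for Syt1.

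**Figure D3:**
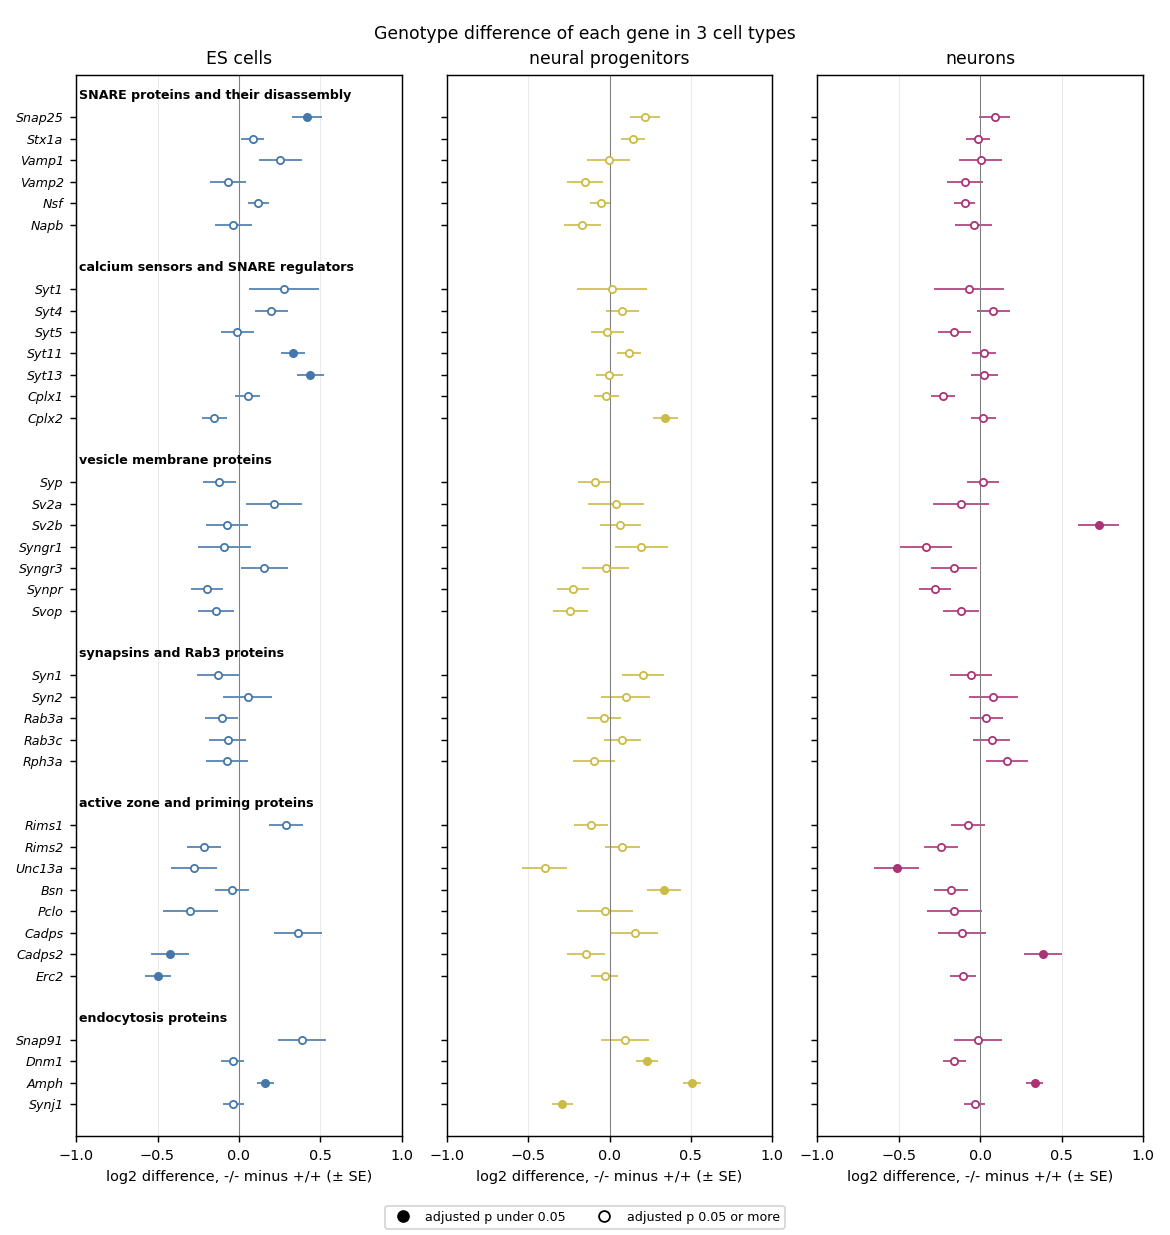
Log2 difference of each gene (± SE), -/- minus +/+, in ES cells, neural progenitors and neurons, filled where the adjusted p was under 0.05. All points lie between -0.51 and 0.73, and filled points number 6, 5 and 4.

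Other cell types' markers moved with genotype in the neural cultures. Mesenchyme and fibroblast markers were higher in -/- for 11 of 12 genes in progenitors and 7 of 12 in neurons, and the array means of their log2 intensity were 9.18 to 9.29 in +/+ against 10.26 to 10.29 in -/- progenitors, and 9.46 to 9.78 against 10.21 to 10.41 in neurons. Endoderm markers were lower for 7 of 10 in -/- progenitors, with 1 higher, Afp by 0.51, and lower for 5 of 10 in -/- neurons, with 0 higher. Their array means were 8.68 to 8.73 against 7.85 to 7.92 in progenitors and 7.72 to 7.84 against 7.31 to 7.41 in neurons. Pluripotency markers were lower for 7 of 8 in -/- progenitors, with a median of -0.72 and array means of 7.64 to 7.69 against 6.84 to 6.98, and for 3 of 8 in -/- neurons, with array means of 5.96 to 5.98 against 5.64 to 5.80. The group mean of 4 of these 8 genes was under the bound in neurons of each genotype, and of 1 in progenitors, so the neuronal means lie partly near background. Of 17 pan-neuronal markers 4 were lower in -/- neurons and none higher: the neurofilament genes Nefm, -0.74, Nefl, -0.58, and Ina, -0.30, and the microtubule protein gene Dcx, -0.29. Array means of the pan-neuronal list were 11.52 to 11.70 in +/+ and 11.38 to 11.45 in -/- neurons, and no gene of the pan-neuronal or mesenchyme list had a group mean under the bound in neurons. In ES cells 2 of 17 pan-neuronal markers were higher and 3 lower in -/-. The part of these shifts in the vesicle genes' differences was not tested.

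**Figure D4:**
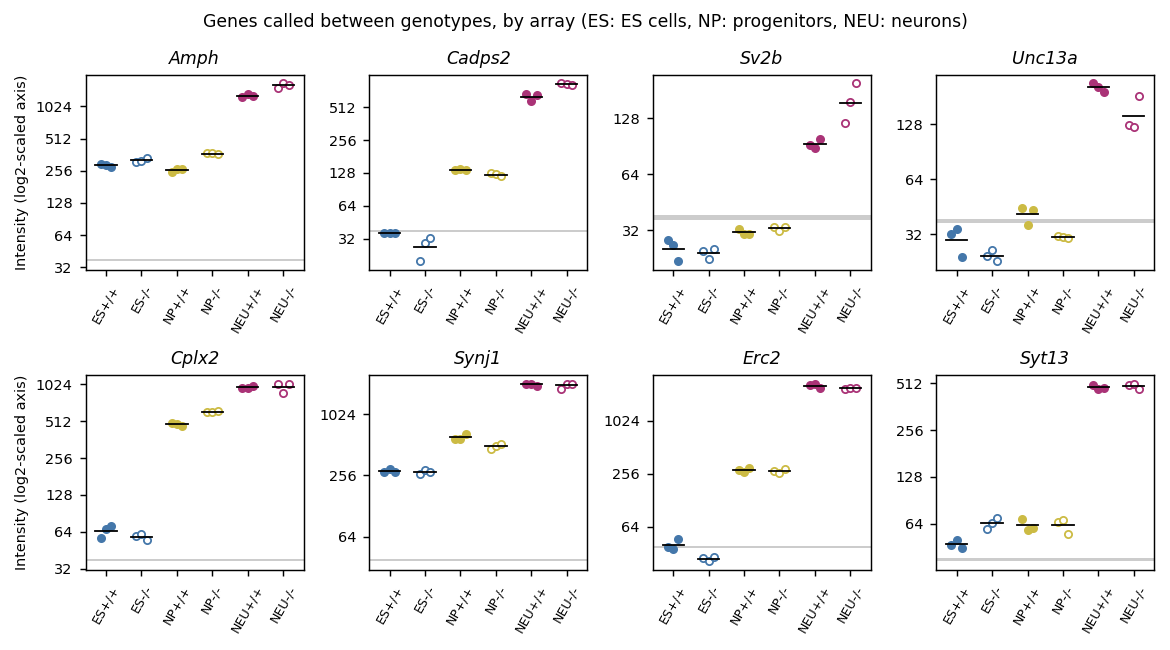
Intensity on each array (points, log2-scaled axis) with the mean of the group (bar) for 8 genes called between genotypes, and the 40th percentile in grey. Amph is higher in all 3 -/- arrays of each cell type, whereas Cadps2 is higher in -/- neurons, with all its ES arrays under the bound.

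The change of the genotype difference between cell types was also tested. From ES cells to progenitors it was called for 4 of the 37, Amph, Cplx2 and Erc2 upward and Syt13 downward, against 5.71% and 10.6% of all genes (16.3% called). From progenitors to neurons it was called for 4, Sv2b and Cadps2 upward and Dnm1 and Bsn downward, against 5.67% and 5.41% (11.1% called). From ES cells to neurons, a comparison added after the data were seen, it was called for Cadps2, Sv2b and Erc2 upward and Syt13 downward, against 4.7% and 11% (15.7% called). These tests share arrays. For Cadps2 and Sv2b in ES cells, and Sv2b in progenitors, both genotypes were under the bound, as were 5 of the 6 ES arrays of Erc2, so these changes take a difference near background from a measured one.

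Amph was higher in -/- cells of all 3 types. In progenitors it was at 250.3, 264.9 and 268.0 in +/+ and 374.0, 373.3 and 366.1 in -/-. Neurons had 1238, 1324 and 1267 against 1531, 1676 and 1623, and ES cells had 298.3, 289.8 and 274.7 against 311.9, 316.6 and 337.9. The groups did not overlap in any cell type. The differences were 0.51 (SE 0.05, adjusted p 3.46e-06) for progenitors, 0.33 (SE 0.05, adjusted p 0.000413) for neurons and 0.16 (SE 0.05, adjusted p 0.0487) for ES cells. The ES call of Amph was lost when any 1 of the +/+ ES arrays or -/- ES replicate 2 or 3 was left out, and with only the ES arrays fitted. Genes called higher in -/- ES cells numbered 3 instead of 4 without the intensity filter and with quantile normalization, array weights or the replicate block. At least 1 of the ES calls of Amph, Snap25, Syt11 and Syt13 was thus lost in each of these settings. The difference in progenitors exceeded that in ES cells by 0.34 (adjusted p 0.00499). Amph was read by 1 probe set, whose promoter stretch with the E-box is given above.

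Sv2b, a glycoprotein related to Sv2a, had the largest difference in neurons. It was at 91.6, 88.6 and 99.0 in +/+ neurons and 121.0, 155.6 and 196.7 in -/- neurons, and under the bound in every ES and progenitor array. The neurons did not overlap, and the -/- arrays spread more widely. The difference was 0.73 (SE 0.13, adjusted p 0.000947), or 1.66-fold, and 0.30 (adjusted p 0.0748) on its other probe set. The change of 0.66 from progenitors (adjusted p 0.025) subtracts a difference between groups under the bound and adds little to the neuronal value, and its call was lost without replicate 1 of +/+ progenitors, replicate 2 of -/- progenitors, replicate 1 or 2 of +/+ neurons or replicate 2 of -/- neurons.

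Cadps2, above background at the later stages alone, was higher in -/- neurons. It was at 670.3, 584.5 and 658.1 in +/+ neurons and 846.2, 839.7 and 811.3 in -/- neurons, a difference of 0.39 (SE 0.11, adjusted p 0.0355). In ES cells it was at 36.3, 35.9 and 36.0 against 19.9, 29.4 and 32.3, a difference of -0.42 (SE 0.11, adjusted p 0.0227), with every ES array under the bound, so neither a fold nor a direction is read from it. Neither pair of groups overlapped. The ES call was lost without +/+ replicate 1 or 3, and with only the ES arrays fitted. The call in neurons was lost when any 1 of the 6 neuron arrays was left out (differences of 0.33 to 0.42 over all alternatives). The neuronal difference exceeded that in progenitors by 0.53 (adjusted p 0.0457), and this call was lost without any 1 of the 12 arrays compared, and with the replicate block. Upward calls of this change among the vesicle genes fell from 2 to 1 without the intensity filter and with the mean of probe sets. At least 1 of the Sv2b and Cadps2 calls was thus lost in each of these settings.

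Unc13a, which opens syntaxin for SNARE assembly, was the only gene called lower in -/- neurons. It was at 214.5, 206.0 and 192.0 in +/+ neurons and 126.8, 124.3 and 183.7 in -/- neurons. The groups did not overlap, and -/- replicate 3 lay closer to the +/+ arrays than to its mates. The difference was -0.51 (SE 0.14, adjusted p 0.0224), or 1.43-fold lower. It was no longer called without +/+ neuron replicate 1 or 2, without -/- neuron replicate 1 or 2, or with only the neuron arrays fitted. In progenitors all 3 -/- arrays, 31.3, 31.0 and 30.4, were under the bound, against 44.3, 35.8 and 43.6 in +/+, and the difference of -0.40 was not called. The RE1 letters printed for Unc13a lie just past its start.

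Among the genes called in progenitors, Cplx2 was at 498.8, 483.8 and 465.0 in +/+ and 604.8, 613.3 and 616.9 in -/-, a difference of 0.34 (SE 0.08, adjusted p 0.00478). All 3 of its probe sets were higher in -/- progenitors. Synj1 was at 579.5, 581.0 and 656.8 against 467.7, 495.7 and 522.0, a difference of -0.29 (SE 0.06, adjusted p 0.00436), and all 3 of its tested probe sets were lower. Neither gene's groups overlapped. The Cplx2 difference exceeded that in ES cells by 0.49 (adjusted p 0.00541).

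Dnm1 was at 143.6, 153.4 and 136.4 in +/+ progenitors and 160.7, 177.1 and 170.9 in -/- progenitors, a difference of 0.23 (SE 0.07, adjusted p 0.029). Its genotype difference changed by -0.39 from progenitors to neurons (adjusted p 0.0162). Bsn was at 71.0, 66.4 and 65.2 against 81.3, 90.7 and 84.4 in progenitors, a difference of 0.33 (SE 0.11, adjusted p 0.0398), but its other tested probe set gave -0.11, and the call was lost without any 1 of the 6 progenitor arrays. The Bsn difference changed by -0.51 from progenitors to neurons (adjusted p 0.0375), against 0.10 on the other probe set, and that call was lost with the replicate block, with the mean of probe sets, and without any +/+ progenitor array, -/- progenitor replicate 2 or 3, or replicate 1 or 2 of either neuron group. Neither gene's progenitor groups overlapped. The Dnm1 call in progenitors was lost without +/+ replicate 1 or 3 or -/- replicate 2 or 3. Genes called higher in -/- progenitors numbered 3 instead of 4 with quantile normalization and with the replicate block. At least 1 of the progenitor calls of Bsn and Dnm1 was thus lost in each of these settings.

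In ES cells the calls fell on dim probe sets for 3 of the 6 genes. Erc2 was at 37.4, 35.5 and 45.7 in +/+ and 28.0, 25.7 and 29.1 in -/-, a difference of -0.50 (SE 0.08, adjusted p 0.00111). Snap25 was at 26.2, 23.4 and 24.1 against 38.6, 31.6 and 29.8, a difference of 0.42 (SE 0.09, adjusted p 0.00812), while its other probe set gave -0.01 and the mean of both was not called. The groups did not overlap, and all +/+ arrays of Snap25 and all -/- arrays of Erc2 were under the bound. Cadps2 was the third such gene.

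Of the other ES calls, Syt13 was at 46.8, 50.6 and 45.0 in +/+ and 59.6, 64.7 and 70.0 in -/-, a difference of 0.44 (SE 0.08, adjusted p 0.00277). These Syt13 intensities were above the bound on every array but near it. Syt11 was at 222.2, 265.5 and 255.9 against 312.7, 339.1 and 284.9, a difference of 0.33 (SE 0.07, adjusted p 0.00681). The groups of both genes did not overlap, and all 5 Syt11 probe sets were higher in -/- ES cells. From ES cells to progenitors the Syt13 difference changed by -0.44 (adjusted p 0.0171) and that of Erc2 by 0.47 (adjusted p 0.0106).

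Erc2 lies on chromosome 14, as do Cadps and Synpr. Of the 490 tested genes on that chromosome 49.2% were called lower in -/- ES cells, and 32.4% and 22.2% at the later stages. Elsewhere the shares were 2.76%, 8.41% and 6.78% in that order. Cadps gave 0.36, 0.15 and -0.11, and Synpr -0.19, -0.22 and -0.28, none of them called. The part of the chromosome in the Erc2 difference was not tested.

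Related genes of the cycle that are not among the 38 were also counted. Of 51 tested partner genes of 61 listed, 33 rose and 14 fell in the second step of +/+ cells, with a median of 0.69. The neuronal dynamin Dnm3 rose by 4.54, Syn3 by 3.71 and the sensor Syt7 by 2.50, whereas the widely expressed SNAREs Snap23 and Vamp8 fell by 1.40 and 1.0. Of 4 tested transmitter transporters of 8 listed, 3 rose: Slc32a1, which loads GABA and glycine, by 4.43, Slc18a2, which loads monoamines, by 3.17, and Slc17a6, which loads glutamate, by 2.69. Slc32a1 differed by -0.24 in -/- progenitors (adjusted p 0.0302) and by the same -0.24 in -/- neurons (adjusted p 0.0377), the only transporter called. In neurons 4 of 51 partner genes were higher and 2 lower in -/-, against 5.95% and 7.27% of all genes (13.2% called).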

How the data were processed

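Mouse expression was measured on 18 Affymetrix arrays, 3 in each of 6 groups. Each probe set has a deposited intensity that is linear, not logged. The submitters' processing notes name RMA and limma for the steps the authors ran, without versions. No column belonged to a sample without a label (0 columns). A linear model with 6 group means and 12 residual degrees of freedom was fitted to log2(intensity + 1), with R 4.3.3 and limma 3.58.1 using lmFit, contrasts.fit and eBayes. The comparisons were -/- against +/+ in each cell type, both differentiation steps in each genotype, and the differences between genotype effects. P-values were adjusted over all 14432 genes by Benjamini-Hochberg. Precision rests on the number of arrays, since intensities carry no depth.

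Of 45101 probe sets, 64 were controls and 34945 had 1 symbol in GEO's platform annotation, while 932 had several and 9160 none and were not used. Symbols were looked up in RefSeq, and 0 changed. Probe sets at or above the 40th percentile of their array on at least 3 arrays were kept, and the one with the highest mean log2 value stood for its gene. Filter, scaling, pseudocount, probe set choice, variance model, array weights, replicate block and each array left out were tried as alternatives. The fit was tested on simulated data.

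Array values are given for Snap25, Stx1a, Vamp2 and Syt1, for up to 4 genes per direction and cell type called between genotypes without overlap, for the 3 largest rises and falls of each +/+ step, and for up to 3 genes per direction called in each difference of genotype effects. The genes and all lists (partner genes, transmitter transporters, proton pump subunits, dense-core vesicle genes, pan-neuronal, neural progenitor, pluripotency, mesenchyme, endoderm, astroglial, endocrine and neural crest markers) were chosen with earlier results of these data known.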

Additional observations from a re-analysis of the deposited data

Results flagged for a closer look

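The genotype difference (-/- minus +/+, log2) of 8 genes differed between 2 cell types by a test of the difference itself. From ES cells to progenitors it changed by 0.34 for Amph, 0.49 for Cplx2, 0.47 for Erc2 and -0.44 for Syt13 (4 of 37 called, against 16.3% of all genes). From progenitors to neurons it changed by -0.51 for Bsn, 0.53 for Cadps2, -0.39 for Dnm1 and 0.66 for Sv2b (4 of 37, against 11.1%). From ES cells to neurons, a comparison added after the data were seen, it changed by 0.81 for Cadps2, 0.80 for Sv2b, -0.41 for Syt13 and 0.39 for Erc2 (against 15.7%). These comparisons share arrays and are not independent. In ES cells Cadps2 and Sv2b were under the detection bound on all arrays and Erc2 on 5 of 6, and Sv2b was under it on all progenitor arrays, so the changes that enter these groups hold a difference near background. The other tested probe set of Bsn changed by 0.10, and the Bsn, Cadps2 and Sv2b calls from progenitors to neurons were lost without single arrays, whereas the Dnm1 call was kept under every alternative run.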

How the results depend on the processing

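The counts for both differentiation steps stayed within 1.5 times their values under every alternative run. Between genotypes some did not. With only the 6 ES arrays fitted, limma called 0 of the 37 genes in ES cells instead of 6 (8 at an unadjusted p under 0.05) and 234 of all genes instead of 2144. In progenitors array weights gave 9 genes instead of 5, and in neurons the mean of all probe sets gave 7 instead of 4. Arrays of the same replicate number correlated at -0.14 to 0.12 after their group means were removed. Arrays of unlike number were not correlated for reference, so this does not decide whether replicate numbers pair the samples. With the replicate block, the change of the genotype effect from progenitors to neurons was called for 2 genes instead of 4, and other counts moved less, such as 35 for the second +/+ step. Leaving out each array in turn gave 4 to 7 genes for ES cells, 3 to 6 for progenitors (3 without +/+ replicate 1 or 3 or -/- replicate 2 or 3) and 2 to 5 for neurons (2 without +/+ replicate 1 or 2 or -/- replicate 2). It gave 4 to 7 for the change of effect from ES cells to progenitors (7 without +/+ ES replicate 2) and 1 to 4 for that from progenitors to neurons (1 without replicate 1 of +/+ progenitors, replicate 2 of -/- progenitors, replicate 1 or 2 of +/+ neurons or replicate 2 of -/- neurons). It gave 25 to 27 and 35 to 36 for the +/+ steps, and 21 to 24 and 35 to 36 for the -/- steps. Among single genes, 3 values changed sign with a call. Stx1a in the first +/+ step was -0.16 with quantile normalization (adjusted p 0.0404) instead of 0.03, Rims1 there was -0.34 with the mean of probe sets (adjusted p 0.00119) instead of 0.03, and Bsn in the second -/- step was 0.49 with that mean (adjusted p 5.05e-06) instead of -0.34. The cause was not tested. Of the counts for other gene lists, 92 moved by over 1.5 times and 673 did not. The genotype calls of Amph and Sv2b in neurons and of Amph, Cplx2 and Synj1 in progenitors passed under every alternative run. Leaving out +/+ ES replicate 3 also where ES cells are not compared, and the genotype effect in neurons against ES cells, were chosen after seeing the data. Signal near the background limits the values of ES cells most, with the group mean of 10 of the 37 genes under the bound in each genotype.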

Other observations

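Dense-core vesicles carry neuropeptides, and most of their genes rose in both steps. In the second, 10 of 10 tested (of 12 listed) were higher in +/+ neurons than in progenitors, with a median log2 change of 2.44. Scg2 rose there by 4.12 and Chgb, a granin, by 3.60. From +/+ ES cells to progenitors 8 were already higher and 2 lower. The median of that first step was 2.53, against 0.31 for the synaptic vesicle genes. Between genotypes Chgb was higher in -/- progenitors by 1.37 (SE 0.13, adjusted p 7.39e-07) and gave 0.33 in neurons (adjusted p 0.101). In progenitors 3 of the 10 were higher and 1 lower, against 7.81% and 9.19% of all genes (17% called).

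The proton pump acidifies vesicles and so drives transmitter loading. Of its 14 tested subunits (of 15 listed), 13 rose in the second step of +/+ cells, with a smaller median of 0.52. In -/- progenitors 5 were lower and 0 higher, against 9.19% and 7.81% of all genes (17% called). Atp6v0b differed there by -0.40 (adjusted p 9.46e-05), and the subunits' median genotype difference in neurons was -0.02.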
